A study of Mus musculus with 4 samples.

Results

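Of the 24346 gene symbols listed for each library, 49 had an FPKM (read fragments scaled by transcript length and by library size) above 5 in both libraries of hair follicle stem cells (HFSCs) after 48 passages and under 0.1 in both libraries after 10 passages. These 49 genes, close to silent in early-passage cells and on in late-passage cells, are described here. They were chosen on these very values, so their levels and their difference between passages are a description and not a tested result. The limits alone took in 60 symbols, and 11 of them were left out by name or family (Abcg2, Aldh1a7, Ap1m2, Ccl5, Dusp4, Gstt3, H2-K1, Ifnar2, Nxf7, Pak3 and Snrpn). The opposite pattern, above 5 in both 10-passage libraries and under 0.1 in both 48-passage libraries, was met by 65 symbols.

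HFSCs are epithelial stem cells of the follicle bulge that regrow the follicle in each hair cycle. The cells were sorted from dorsal skin epithelium of adult C3H/HeN mice, by CD34 and integrin alpha 6 on their surface, and grown in a serum-free medium without feeder cells. Polyadenylated RNA was sequenced in 2 libraries after 10 passages (10p-HFSCs) and 2 libraries after 48 passages (48p-HFSCs), with no other treatment or genotype in either group. The study asked what distinguishes cells that had been passaged for a long time. The sources used here do not say whether the 2 libraries of a group came from separate cultures, so a p-value measures only the spread between these libraries, which may be technical. A long-passaged culture may be a selected population, which was not tested. RNA of the whole culture cannot tell more cells that express a gene from more RNA per cell.

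The label was checked against marker genes. Krt5 and Krt14, keratins of basal keratinocytes, were at 1473 and 1217 FPKM or more in every library. Cd34, the surface marker used for the sort, was at most 0.234 FPKM in any library, and Lhx2, a bulge transcription factor, was at most 0.0241, so these 2 markers of the bulge stem cell were near 0 at both passages. The bulge keratin Krt15 was on, at 136 and 82.6 FPKM and then at 425 and 18.8, and was not called. Sox9, a transcription factor of the bulge, was on as well, at 45.6 and 44.2 and then at 20.2 and 8.31, and was called lower by limma (log2 difference -1.71, adjusted p = 0.0389). The study reported otherwise by other methods. It found CD34 protein on most cells at both passages. By qRT-PCR it found Cd34 RNA kept and Lhx2 and Sox9 RNA raised in 48p-HFSCs. Why these FPKM values differ from those reports was not tested. Summed over 9 fibroblast markers, FPKM was 353 and 388 in 10p-HFSCs against 2.54 and 3.32 in 48p-HFSCs, and Vim and Col1a2 made up nearly all of the sum and were the 2 of them called lower by limma. The other 7, among them Dcn, Lum and Thy1 at 0 throughout, were at most 0.903 FPKM (Col1a1) in any library. The 8 leukocyte markers summed to between 1.51 and 3.49 FPKM in every library. Csf1r made up most of that sum, with early values of 1.28 and 1.13 FPKM and late values of 3.39 and 1.62. Csf1r alone among the 8 passed the filter for testing, and it was not called (limma adjusted p = 0.214). Cd3e and Tyrobp were listed at 0 in all 4 libraries. The 6 trophoblast markers summed to at most 0.176. The part of a change in cell makeup in the results below was not tested.

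Low FPKM values fell in steps that 1 read explains, which gave an approximate depth of 18300000 and 13200000 fragments for the 10p-HFSC libraries and of 15300000 and 8600000 for the 48p-HFSC libraries. All FPKM values of a library summed to 581516 to 719012 in 3 of them and to 1414953 in replicate 2 of 48p-HFSCs, and rescaling each sum to the same total (TPM) was tried as an alternative. In a transcript of 2000 bases, 1 read was worth 0.0274 and 0.0379 FPKM in the 10p-HFSC libraries, and the limit that a count of 0 allows (3 reads) was 0.082 and 0.114 FPKM, for counting error alone. The lower limit of the rule therefore stood at the edge of what these libraries could show.

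At 10 passages the value listed was 0 in both libraries for 26 of the 49 genes, 12 were at 0 in 1 of them and 11 were above 0 in both. Where a gene was above 0, the value stood for a median of about 1.91 reads and for at most about 6.61 (Rsad2 in replicate 1). In 48p-HFSCs the same genes had a median of about 306 reads per library. The lowest estimate was about 19.8 (Snora21, 137 bases). The value of 1 read came from transcripts over 1 kb and may not hold for so short an RNA. Their median was 11.1 FPKM in both 48p-HFSC libraries, and the range ran from 5.25 to 86.0 in replicate 1 and from 5.07 to 162 in replicate 2. Taking the lower library of each gene, the median of the 49 was 8.85 FPKM against 18.5 over the 7232 symbols above 5 in both 48p-HFSC libraries, so most of these genes were on at a modest level. For reference, limma called all 49 higher, a description since the rule used the same contrast, beside 10.8% of the 11018 genes tested over the whole table, with log2 differences of log2(FPKM + 1) from 2.68 (Nlrp14) to 6.84 (Tmem176a). Without replicate 1 or without replicate 2 of 10p-HFSCs, the spread came from the 48p-HFSC libraries alone. Most of these calls were then lost, as were most calls over all genes tested.

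**Figure D1:**
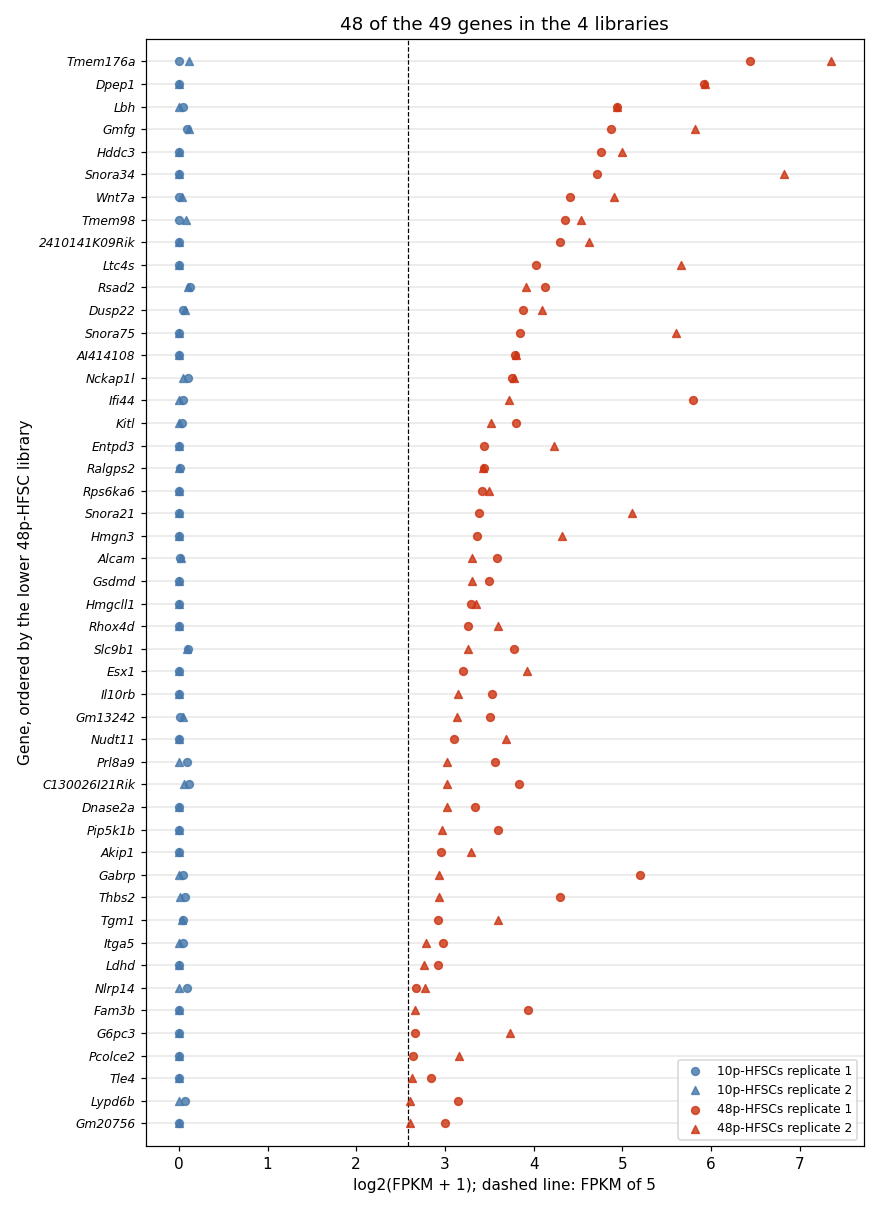
Each row is 1 of 48 of the 49 genes and each point 1 library, on the log2(FPKM + 1) scale, with 10p-HFSCs in blue, 48p-HFSCs in red, circles for replicate 1 and triangles for replicate 2. The blue points sit at or next to 0 and every red point lies right of the dashed line at 5 FPKM, from Gm20756 (5.07 in its lower library) to Tmem176a (86.0 in its lower library).

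By annotation, 44 of the 49 were protein-coding genes, 3 were small nucleolar RNAs, 1 was a long intergenic noncoding RNA (Gm20756) and 1, AI414108, had no annotation of its own. The 48 genes with a position lay on 18 chromosomes, with 5 on chromosome 11, 4 each on chromosomes 1, 7, 9, 15 and X, and none on 5 or 18. The 49 were sorted by hand, after their values were known, into groups by what their products are known to do, and the groups are described in turn.

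Secreted signals made up 4 of the 49. Wnt7a, a Wnt ligand made by epithelium, was at 0 and 0.0230 FPKM in replicates 1 and 2 of 10p-HFSCs, then 20.3 and 28.9 at 48 passages. Kitl, the stem cell factor that melanocytes and mast cells depend on, went from 0.0280 and 0 to 12.9 and 10.4. The receptor it acts on, Kit, was listed at 0 in all 4 libraries, so the ligand was on where its receptor was listed at 0. Fam3b, a cytokine-like secreted protein, was at 0 in both 10p-HFSC libraries and at 14.4 and 5.32 in 48p-HFSCs. Prl8a9, a prolactin-family hormone of the placenta, was at 0.0668 and 0 before 10.8 and 7.15, and its family has many closely similar copies, so its reads may be shared. Partner genes such as Kit, here and in the next paragraphs, were picked after their values had been seen and carry no test.

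Cell surface and membrane proteins made up 8 of the 49. Tmem176a, a small membrane protein best known from dendritic cells, had the highest level of all, with 0 and 0.0843 FPKM at 10 passages and 86.0 and 162 in 48p-HFSCs. Its 48p-HFSC mean lay above that of 96.6% of all symbols. Tmem98, a membrane protein of many tissues, was at 0 and 0.0573 and then at 19.4 and 22.2. Gabrp, the pi subunit of the GABA-A receptor found in epithelia, was at 0.0318 and 0 and then at 35.8 and 6.63, the widest gap between the 48p-HFSC libraries of any of the 49 (5.39-fold). Alcam, an adhesion molecule of the immunoglobulin family, was at 0.0103 and 0.0144 and then at 11.1 and 8.85. These 4 genes were far apart between passages, and only for Gabrp was the gap between late libraries as large as 2-fold.

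Il10rb, the chain shared by the receptors for interleukin 10, interleukin 22 and interferon lambda, was at 0 in both 10p-HFSC libraries and at 10.5 and 7.88 FPKM in 48p-HFSCs. Its partner chains were low at 48 passages. Il10ra was listed at 0 throughout, Il22ra1 was at 1.07 and 0.223, and Ifnlr1 went from 3.27 and 3.46 in 10p-HFSCs to 0.0465 and 0.0550. Itga5, which pairs with Itgb1 to bind fibronectin, was at 0.0352 and 0 and then at 6.88 and 5.88, while Itgb1 was at 281 and 206 at 10 passages and 108 and 151 in 48p-HFSCs. Slc9b1, a sodium/proton exchanger known mainly from sperm, reached 12.7 and 8.56, and Lypd6b, a small protein of the Ly6 family, reached 7.84 and 5.08. The receptor chain and the integrin chain were thus each on at a few FPKM beside partners whose own levels lay far below or far above them.

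Among intracellular signalling proteins, the late libraries mostly lay close together. Rps6ka6, a kinase of the RSK family, was at 0 FPKM in both early libraries and at 9.73 and 10.3 later. Dusp22, a dual-specificity phosphatase acting in JNK signalling, was at 0.0343 and 0.0478 and then at 13.7 and 16.0. The late libraries were 1.05-fold apart for Rps6ka6 and 1.17-fold for Dusp22. Ralgps2, an exchange factor for the GTPase Ral, was at 0.0073 and 0 and then at 9.90 and 9.79. Pip5k1b, which makes the lipid PIP2 at the membrane, reached 11.1 and 6.80 from 0, and Akip1, a protein that binds protein kinase A, reached 6.73 and 8.83 from 0.

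The 2 actin regulators are both known mainly from blood cells. Gmfg, which takes apart branched actin, was at 0.0692 and 0.0849 FPKM at 10 passages and then at 28.3 and 55.6 in 48p-HFSCs, while Gmfb, its widely expressed relative, lay between 22.0 and 26.5 in all 4 libraries. Nckap1l, the blood-cell subunit of the WAVE complex that starts branched actin, was at 0.0758 and 0.0303 and then at 12.5 and 12.8. Other subunits of that complex were on at both passages, with Abi1 between 33.6 and 42.3 and Cyfip1 between 13.8 and 25.5. Ptprc, the pan-leukocyte marker CD45, was at most 0.0711 in any library, so these 2 genes were on in libraries with almost no RNA of that marker.

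Metabolic and degradative enzymes were the largest group with 9 genes, and each of the 9 was listed at 0 in 10p-HFSCs. Dpep1, a surface dipeptidase that trims leukotriene D4, was at 59.5 and 60.1 FPKM in 48p-HFSCs, nearly equal in both libraries. Ltc4s, leukotriene C4 synthase, was at 15.3 and 49.6 and so differed 3.25-fold between them. Of the genes that act before Ltc4s, Alox5ap was at 24.3 and 32.0 in 48p-HFSCs against 1.69 and 1.94 in 10p-HFSCs. Alox5, the enzyme that makes the precursor itself, was at most 0.225 in any library. Ltc4s and Dpep1 were therefore on in late cultures while Alox5 was close to 0.

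Hddc3, a hydrolase of the alarmone ppGpp, was at 26.2 and 31.0 FPKM in 48p-HFSCs. Entpd3, an ectonucleotidase that cleaves extracellular ATP, was at 9.82 and 17.7. Hmgcll1, which splits HMG-CoA outside mitochondria, was at 8.83 and 9.23. Nudt11, a phosphatase of diphosphoinositol polyphosphates, reached 7.58 and 11.9. The others were lower, with Dnase2a (a lysosomal DNase) at 9.09 and 7.12, Ldhd (D-lactate dehydrogenase) at 6.60 and 5.81, and G6pc3 (a glucose-6-phosphatase) at 5.32 and 12.3. In 7 of the 9 enzymes the value was higher in replicate 2 of 48p-HFSCs.

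Genes of the interferon response and innate immunity made up 3 of the 49. Rsad2, the antiviral enzyme viperin, was at 0.0956 and 0.0762 FPKM in 10p-HFSCs, the first the highest early value among the 49, and at 16.5 and 14.03 in 48p-HFSCs. Ifi44, another interferon-induced gene, was at 0.0361 and 0 and then at 54.4 and 12.2, 4.45-fold apart. Gsdmd, the pore-forming protein of pyroptosis, was at 0 and then at 10.3 and 8.85. The proteases that cleave it were also high in late cultures, with Casp1 at 25.3 and 20.5 against 0.709 and 0.365, and Casp4 at 16.1 and 14.4 against 0.197 and 0.0550. All 3 genes of this group were higher in replicate 1 of 48p-HFSCs than in replicate 2.

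Among nuclear regulators, Lbh, a transcription cofactor downstream of Wnt signalling, was at 0.0341 and 0 FPKM at 10 passages and then at 29.7 and 29.6 in 48p-HFSCs. Hmgn3, a nucleosome-binding protein, was at 0 and then at 9.27 and 18.9. Tle4, a Groucho corepressor, was at 0 and then at 6.16 and 5.18, near the limit. Genes of the matrix and of the cornified envelope made up 3 of the 49. Thbs2, a matrix thrombospondin, was at 0.0513 and 0.0119 and then at 18.6 and 6.61. Pcolce2, which helps to process procollagen, reached 5.25 and 7.93 from 0, and Tgm1, the transglutaminase that crosslinks the cornified envelope, reached 6.57 and 11.1 from 0.0369 and 0.0268.

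Germline and placental genes made up 3 of the 49. Rhox4d, a homeobox gene of the X-linked Rhox cluster, was at 0 in both early libraries and at 8.58 and 11.1 FPKM in 48p-HFSCs. Its near-identical copies Rhox4a, Rhox4f and Rhox4g were listed at 0 in all libraries and Rhox4b, Rhox4c and Rhox4e were at most 0.837, so the assignment of reads among these copies is uncertain. Esx1, an X-linked homeobox gene of placenta and testis, was at 0 and then at 8.23 and 14.2. Nlrp14, a gene of germ cells, was at 0.0635 and 0 and then at 5.38 and 5.85. Prl8a9, described above, is also placental.

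None of the 3 small nucleolar RNAs, which guide the modification of other RNAs, was listed above 0 in 10p-HFSCs. Snora34 was at 25.2 and 112 FPKM in 48p-HFSCs, Snora75 at 13.4 and 47.6 and Snora21 at 9.42 and 33.5, so each was between 3.55-fold and 4.44-fold higher in replicate 2. They are 133 to 138 bases long and have no poly(A) tail, and the libraries were made from polyadenylated RNA. By the read estimate, a count of 0 for Snora21, at 137 bases, allowed up to 1.198 and 1.66 FPKM in the 10p-HFSC libraries. That is far above the rule's limit. The estimate came from transcripts over 1 kb, so for RNAs this short the true limit may differ. How many reads the values of these 3 RNAs stand for, at either passage, is therefore uncertain. All 3 lie within a host gene on the same strand. The hosts Kansl2, Ncl and Rpl23 were on in all 4 libraries, and none was called (limma adjusted p of 0.446, 0.334 and 0.758). Snora34 also overlaps Mir1291, listed at 0 in 3 libraries and at 69.2 in replicate 2 of 48p-HFSCs.

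The other 5 genes have no role given here. 2410141K09Rik was at 18.6 and 23.7 FPKM in 48p-HFSCs and AI414108 at 12.8 and 13.0, both from 0. Gm13242, listed by RefSeq as another name of Zfp980, was at 0.0129 and 0.0361 and then at 10.4 and 7.79. C130026I21Rik was at 0.0871 and 0.0405 and then at 13.3 and 7.15, and Gm20756 was at 7.01 and 5.07 from 0. Gm13242, 2410141K09Rik and C130026I21Rik have closely similar copies in the genome, so reads may be shared with them.

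The libraries of 48p-HFSCs were then compared with each other over the 49 genes. The value was higher in replicate 2 for 26 genes, with a median ratio of replicate 2 to replicate 1 of 1.01, against 1.17 over the 7232 symbols above 5 in both. A gap of 2-fold or more was seen in 10 of the 49 (20.4%), beside 15.5% of those 7232. Replicate 2 was the higher in 6 of them (Snora34, Snora75, Snora21, Ltc4s, G6pc3 and Hmgn3) and replicate 1 in 4 (Gabrp, Ifi44, Thbs2 and Fam3b). At the other end, the late libraries lay within 1.02-fold of each other in Lbh, Dpep1, AI414108, Ralgps2 and Nckap1l.

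**Figure D2:**
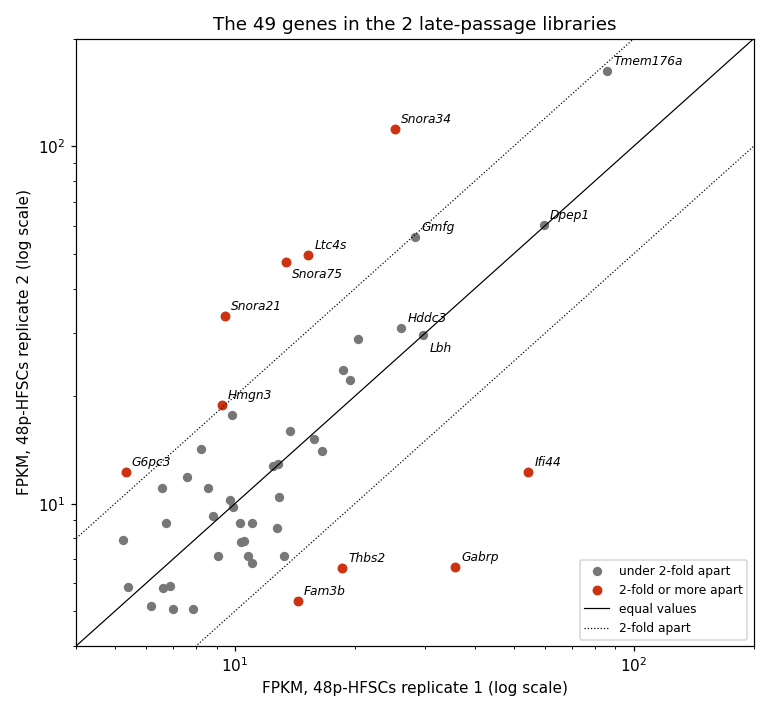
FPKM of the 49 genes in replicate 1 (horizontal) and replicate 2 (vertical) of 48p-HFSCs, both on log axes, with the line of equal values and dotted lines at 2-fold. The 10 genes in red lie 2-fold or more apart, with Gabrp (35.8 and 6.63) and Ifi44 (54.4 and 12.2) farthest below the line and Snora34 (25.2 and 112) farthest above it.

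Values ran on across both limits, with genes just inside and just outside lying close together. Just inside the upper limit were Gm20756, Lypd6b, Tle4, Pcolce2 and G6pc3, with 5.07 to 5.32 FPKM in their lower 48p-HFSC library. Just outside it were Mfap5 (4.93), Il7 (4.88), Ptpn22 (4.85), Agtrap (4.79) and Farp1 (4.79). At the lower limit, Rsad2 (0.0956), C130026I21Rik (0.0871), Gmfg (0.0849), Tmem176a (0.0843) and Nckap1l (0.0758) stood just inside by their higher 10p-HFSC library, and Herc3 (0.106), Asb9 (0.106), Hs3st3b1 (0.106), Gsdmc2 (0.109) and Vnn1 (0.110) just outside.

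Whether related genes shared the pattern was examined next, since the rule used no value of theirs. The families were picked by hand with earlier results of these data known, so the shares given here are a description. Over 10 families that hold one of the 49 genes, 60 relatives were listed, 59 were in the files and 34 passed the filter on low values (1 FPKM or more in 2 or more libraries). limma called 8 of the 34 higher (23.5%), beside 10.8% of all genes tested, and 1 lower (2.94%), beside 9.15%. The median log2 difference of the 34 was 0.20, beside -0.03 over all genes tested. The 8 were Wnt4, Wnt7b, Wnt9a, Wnt10a, Rala, Ralb, Rgl1 and Tmem176b, and the 1 was Tle2. The study had already reported Wnt4, Wnt7b, Wnt9a and Wnt10a as raised in 48p-HFSCs, so these Wnt calls repeat a result known from the same libraries. It also reported Wnt7a, one of the 49, and Wnt5a as raised. Wnt5a was at 0 in both 10p-HFSC libraries and at 2.07 and 0.475 FPKM in 48p-HFSCs, too low to be tested here. The count of 8 fell to 2 after rescaling to TPM, which moved the median of all genes tested to -0.56. Higher calls over all genes tested then fell from 1189 to 623. With either 10p-HFSC library left out most of the 8 calls were lost, as were most calls over all genes tested. The lower count was 0 with either of these libraries left out, 2 after rescaling and 2 with either 48p-HFSC library left out.

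A second list, of the genes sharing a symbol stem with one of the 49, held 75 genes, and 38 passed the filter. Of these, 3 were called higher (7.89%; Ifi27, Itga6 and Lypd3) and 1 lower (2.63%; Tle2), and the median log2 difference was 0.20. Lypd3, a Ly6 protein of squamous epithelium, was the largest, at 18.5 and 16.1 FPKM at 10 passages and 179 and 211 in 48p-HFSCs, with a log2 difference of 3.42 ± 0.26 (SE) and a limma adjusted p of 0.00116. Itga6, the integrin chain used in the sort, was at 31.4 and 20.8 and then at 79.0 or more (1.77 ± 0.31, adjusted p = 0.0143). After rescaling to TPM 1 gene was called higher. With either 10p-HFSC library left out all of these calls were lost, as were most calls over all genes tested. Without replicate 1 of 48p-HFSCs, 5 were called higher and 3 lower, and without replicate 2 of that group 2 were called lower, as after rescaling.

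Among the relatives that passed the filter, many were already on at 10 passages, as were many of all genes tested. Of the 57 relatives of either list that were tested, 44 were above 5 FPKM in both 10p-HFSC libraries, beside 7742 of the 11018 genes tested. Of those 44, 36 were not called in either direction, 8 were called higher and none lower, beside 19.9% of all genes tested called in either direction. A further 56 relatives were in the files but too low to be tested, 20 of them listed at 0 in all 4 libraries. None of the 5 other RSK-family kinases was called. Rps6ka1 was at 11.1 and 11.6 at 10 passages and then at 11.3 and 15.1 in 48p-HFSCs (log2 difference 0.19 ± 0.27, adjusted p = 0.648), and Rps6ka4 was at 38.2 and 43.1 and then at 48.7 and 70.0. Rps6ka6, off at first, thus reached in 48p-HFSCs a level near that of Rps6ka1.

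In the WAVE complex, Nckap1, the widely expressed relative of Nckap1l, was at 23.2 and 19.9 and then at 32.7 and 38.1 (0.69 ± 0.25, adjusted p = 0.105). A p-value over the threshold does not show that such relatives held their level, and a call also needed a difference of 2-fold.

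Elsewhere some relatives lay well above the late gene. Hmgn1 was between 322 and 711 FPKM over the 4 libraries and Hmgn2 between 48.2 and 94.1, beside 9.27 and 18.9 for Hmgn3. Nudt3 and Nudt4, which share the substrates of Nudt11, were between 31.4 and 51.5 and between 77.0 and 123. Tle1 and Tle3 were between 11.5 and 28.2, above the 6.16 and 5.18 of Tle4. Tle2 went the other way, from 1.67 and 2.76 to 0.140 and 0.208 (log2 difference -1.43 ± 0.26, adjusted p = 0.017). Tle6 was at 2.24 and 3.58 and then at 0.390 and 1.16 (-1.15 ± 0.33, adjusted p = 0.0593), not called here but called lower with a replicate block, and Nudt10 was listed at 0 in all 4 libraries. None of Hmgn1, Hmgn2, Nudt3, Nudt4, Tle1 and Tle3 was called.

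The PIP kinases and the Ral group differed in this respect. Pip5k1a was at 16.7 and 11.9 FPKM and then at 22.0 and 25.2, Pip5k1c was at 12.2 and 14.6 and then at 7.76 and 5.85, and neither was called (log2 differences of 0.70 ± 0.28 and -0.89 ± 0.28, adjusted p of 0.130 and 0.0780). Pip4k2a had an adjusted p of 0.0447 and a log2 difference of 0.96, just under the limit of 1. In the Ral group, the GTPases themselves rose. Rala was at 10.8 and 11.2 and then at 31.8 and 59.8 (1.89 ± 0.35, adjusted p = 0.0173), and Ralb was at 37.0 and 43.6 and then at 73.2 and 100 (1.07 ± 0.28, adjusted p = 0.0477). Both calls were lost with either 10p-HFSC library left out and after rescaling to TPM, and that of Ralb also without replicate 2 of 48p-HFSCs and with no filter on low values. Of the other exchange factors for Ral, Rgl1 was called higher, from 1.04 and 0.593 to 3.03 and 2.87 (1.13 ± 0.26, adjusted p = 0.0309), and Ralgds, Rgl2 and Ralgps1 were not called.

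**Figure D3:**
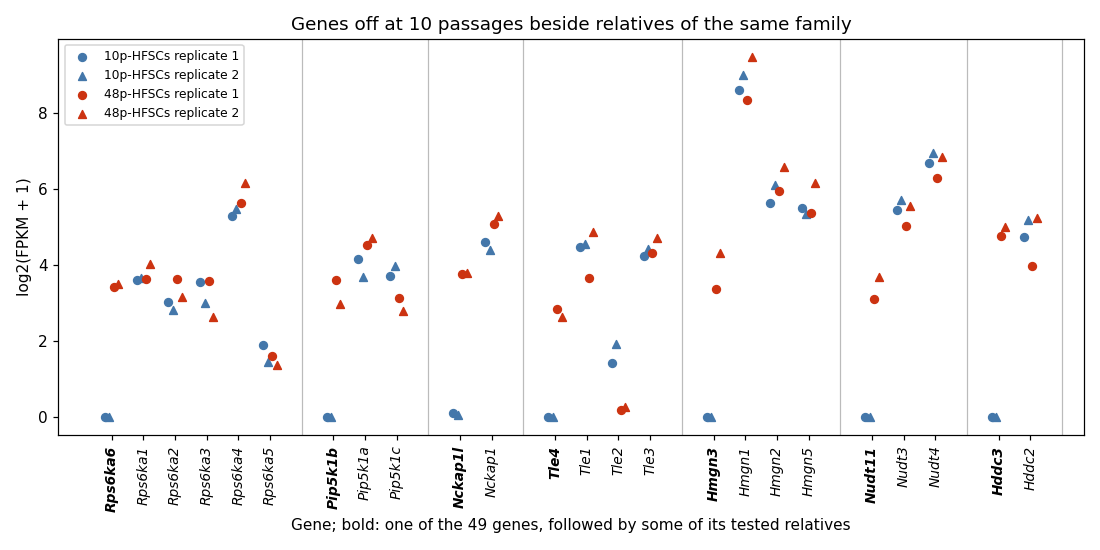
log2(FPKM + 1) in the 4 libraries (10p-HFSCs blue, 48p-HFSCs red, circles replicate 1, triangles replicate 2) for 7 of the 49 genes, in bold, each followed by some of its tested relatives. The bold genes are at or near 0 at 10 passages and between 5.18 FPKM (Tle4) and 31.0 FPKM (Hddc3) in 48p-HFSCs. Of the relatives drawn only Tle2 was called, from 1.67 and 2.76 FPKM to 0.140 and 0.208. The families drawn were picked by hand. The relatives called higher, such as those among the Wnt ligands and the Ral group, Tmem176b, Ifi27, Itga6 and Lypd3, are not drawn.

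The genes lying next to the 49 on the chromosome were compared as well. For 29 of the 49, at least 1 tested gene lay within 100000 bases, which gave 47 neighbours, the nearest on each side. limma called 12 of the 47 higher (25.5%), beside 10.8% of all genes tested, and 2 lower (4.26%), beside 9.15%, and the median log2 difference of the 47 was 0.55. Leaving out neighbours that overlap one of the 49 or pass both limits themselves left 36, of which 10 were called higher (27.8%) and 1 lower. The count of 12 fell to 4 after rescaling to TPM, when higher calls over all genes tested fell from 1189 to 623. With either 10p-HFSC library left out most of the 12 calls were lost, as were most calls over all genes tested. The 2 lower calls became 1 under each of these, and 5 without replicate 1 of 48p-HFSCs. Under none of the alternatives did a called neighbour or relative change direction.

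Some pairs lay very close. Tmem176a (GRCm38 chr6:48840919-48847071) overlaps Tmem176b on the opposite strand, and Tmem176b was at 0.113 and 0 FPKM at 10 passages and then at 91.4 and 128 in 48p-HFSCs (log2 difference 6.69 ± 0.29, adjusted p = 0.000559), so it missed the rule by its value in a single early library. Il10rb (chr16:91406164-91425834) starts 575 bases from Ifnar2, a chain of the type I interferon receptor, which met both limits but was left out by name. Ifnar2 was at 0 in both early libraries and at 17.5 and 27.7 later (4.53 ± 0.31, adjusted p = 0.000991). Ifnar1, the other chain, on the far side of Il10rb, was at 5.77 and 5.22 and then at 5.66 and 4.996, and was not called (-0.04 ± 0.27, adjusted p = 0.928). Of the 3 receptor genes in a row, Il10rb and Ifnar2 met both limits, so their difference between passages follows from those limits. Ifnar1 did not meet them.

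Akip1 (chr7:109703690-109712189) lies 85 bases from St5, which was at 0.664 and 0.731 FPKM at 10 passages and then at 5.88 and 4.11 in 48p-HFSCs (log2 difference 1.80 ± 0.27, adjusted p = 0.00894). Pde1b, a phosphodiesterase of cyclic nucleotides 4224 bases from Nckap1l, was at 0.0162 and 0 and then at 2.23 and 2.13 (1.66 ± 0.22, adjusted p = 0.00541). Mx1, an interferon-induced antiviral GTPase 8058 bases from Fam3b, was at 0.274 and 0.547 and then at 9.62 and 3.58 (2.31 ± 0.44, adjusted p = 0.0181), and it was higher in replicate 1, as Fam3b was. Bdh2 beside Slc9b1 was at 0.658 and 0.533 and then at 6.19 and 5.49 (2.099 ± 0.25, adjusted p = 0.00401). All 4 neighbours were low in 10p-HFSCs, though only Pde1b was as low as the 49 genes.

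The other 6 neighbours called higher were already on at 10 passages. They were Rabggta and Tinf2 beside Tgm1, Zfp385a beside Itga5, Ypel5 beside Lbh, Fbxo36 beside C130026I21Rik and Myo1d beside Tmem98, with log2 differences from 1.07 (Myo1d) to 1.87 (Rabggta). The 2 neighbours called lower follow. Eif1b, a translation initiation factor gene 44488 bases from Entpd3 (chr9:120539818-120568327), was at 13.8 and 15.2 FPKM at 10 passages and listed at 0 in both 48p-HFSC libraries (-3.95 ± 0.25, adjusted p = 0.000916). Rpl14, on the other side of Entpd3, was not called. Man2a2, an enzyme of N-glycan processing, overlaps Hddc3 (chr7:80343104-80350547) on the opposite strand and went from 14.8 and 12.1 to 4.23 and 3.30 (-1.60 ± 0.28, adjusted p = 0.0148). Only Tmem176b and Eif1b, of the 25 relatives and neighbours called, kept the call under every alternative.

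**Figure D4:**
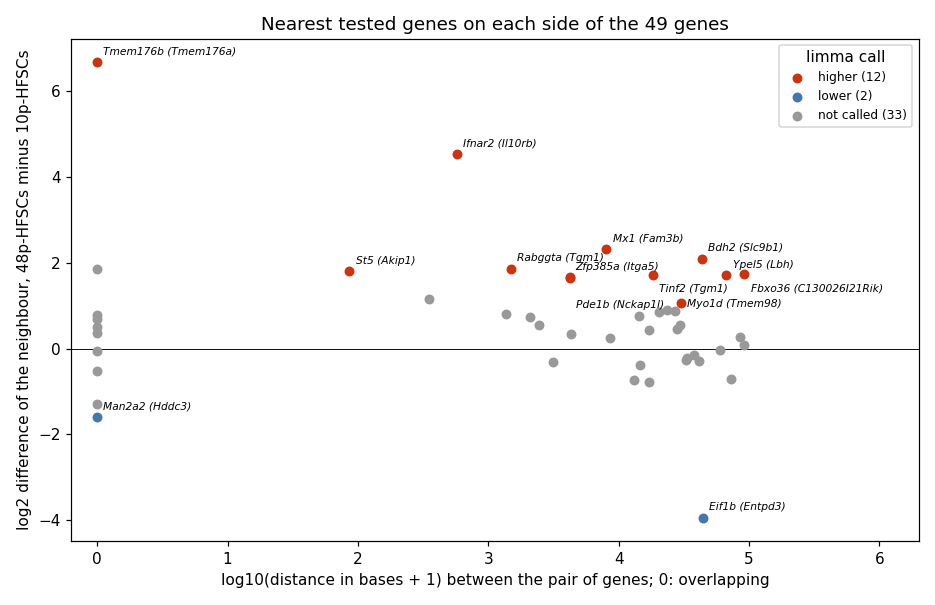
Each point is 1 of the 47 neighbours, placed by its distance from one of the 49 genes (log10 of bases plus 1, with 0 for overlapping genes) and by its log2 difference, 48p-HFSCs minus 10p-HFSCs, and named with that gene in parentheses where limma called it. The 12 red points (called higher) run from Myo1d (1.07) to Tmem176b (6.69), and Eif1b (-3.95) is the lowest of the 2 blue points.

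The strand setting used for counting was not given in the sources used here. Besides Tmem176a and Hddc3, overlaps with a tested gene on the opposite strand included those of Gmfg, which lies inside Samd4b, Ldhd with Znrf1 and C130026I21Rik with Gm7609. Ralgps2, Dnase2a and Akip1 overlap Angptl1, Mast1 and BC051019, which were at most 0.369 FPKM in any library. Without strand, reads from such a pair cannot be told apart. Samd4b (10.6 to 19.6 FPKM) and Znrf1 (6.07 to 14.6) were on in all 4 libraries while their partners were near 0 in 10p-HFSCs, and neither was called.

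Sequence upstream of the genes was a further property that the rule did not use. RefSeq promoter windows (GRCm38.p6, 250 bases before to 50 after the start) were matched for 34 of the 49 genes, with 40 windows in all. CpG dinucleotides are depleted from most of the mouse genome and kept in the promoters of widely used genes, which is measured as their observed number over the number expected from base composition. The median ratio was 0.557 in the 40 windows, 0.79 in 7111 windows of the other symbols above 5 FPKM in both 48p-HFSC libraries and 0.383 in all 32817 windows. A ratio over 0.6 was found in 16 of 40 windows (40%), in 75.3% of the windows of the other symbols and in 35.8% of all windows. The median of these 34 genes lay between both other medians, and their share over 0.6 was nearer to that of all windows. These differences were not tested. The median GC content was 59.3%, against 61.3% and 52.7%.

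**Figure D5:**
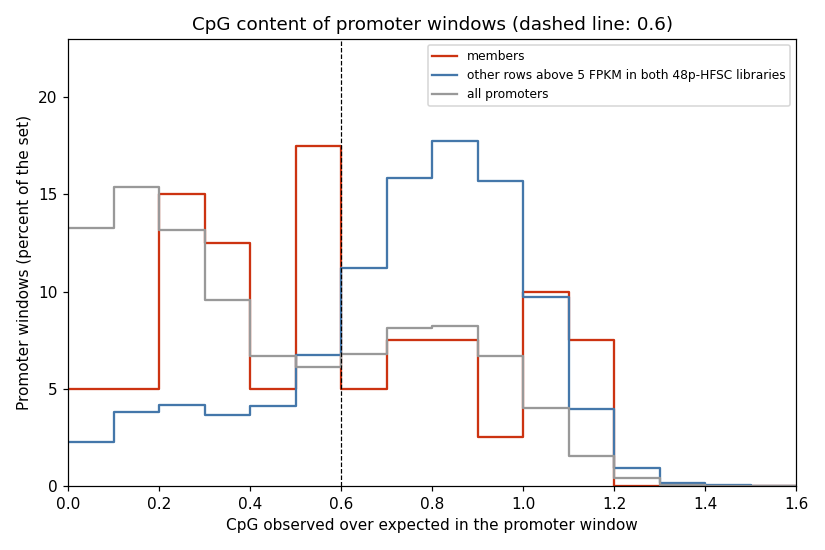
Share of promoter windows (vertical, percent of each set) by the ratio of observed to expected CpG (horizontal, bins of 0.1), for the windows of the 49 genes in red, of the other genes above 5 FPKM in both 48p-HFSC libraries in blue and of all genes in grey. The red line is spread over both sides of 0.6 (16 of 40 windows above it) while 75.3% of the blue windows lie above it.

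The windows of the 49 were of very different kinds, as the stretches before the start site show for a CpG-rich pair and a CpG-poor pair, with each CpG in capitals. Nudt11 (chrX:6047257-6047452, plus strand) held 33 CpG in 196 bases and Wnt7a (chr6:91411364-91411603, minus strand) 32 in 240. Gabrp (chr11:33578960-33579207, minus strand) held 1 in 248 bases and Ltc4s (chr11:50238617-50238782, minus strand) 2 in 166.
Nudt11: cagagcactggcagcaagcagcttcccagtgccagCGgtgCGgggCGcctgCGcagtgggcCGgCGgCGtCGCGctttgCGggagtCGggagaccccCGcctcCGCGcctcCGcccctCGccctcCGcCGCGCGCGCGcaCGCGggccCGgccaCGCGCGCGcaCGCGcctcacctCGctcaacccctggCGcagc
Wnt7a: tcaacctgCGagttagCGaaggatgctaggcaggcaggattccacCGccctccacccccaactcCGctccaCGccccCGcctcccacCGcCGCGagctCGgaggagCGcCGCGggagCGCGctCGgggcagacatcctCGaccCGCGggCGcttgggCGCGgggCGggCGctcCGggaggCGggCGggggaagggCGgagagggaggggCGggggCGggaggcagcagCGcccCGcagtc
Gabrp: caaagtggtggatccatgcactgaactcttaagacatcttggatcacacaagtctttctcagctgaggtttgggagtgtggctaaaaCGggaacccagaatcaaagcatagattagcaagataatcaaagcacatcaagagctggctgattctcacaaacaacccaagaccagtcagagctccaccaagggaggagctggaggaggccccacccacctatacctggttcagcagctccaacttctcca
Ltc4s: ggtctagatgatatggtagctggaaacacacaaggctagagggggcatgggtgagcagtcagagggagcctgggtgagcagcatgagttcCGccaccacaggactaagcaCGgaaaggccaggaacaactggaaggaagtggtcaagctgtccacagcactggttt
All 4 genes were at or near 0 at 10 passages and above 5 FPKM in 48p-HFSCs, so both kinds of promoter were present. Ralgps2, Dusp22 and Tle4 also had a window with a ratio of 1.06 to 1.11, and the windows of Tmem176a and of Gmfg ranged from 0.0579 to 0.223.

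Short motifs were searched on both strands of the windows. TATAAA, the TATA box, was in 12.5% of the 40 windows, against 6.78% of the windows of the other symbols above 5 FPKM and 13.6% of all. GGGCGG, the Sp1 core, was in 50%, against 66.1% and 35.6%. TGANTCA, the AP-1 site, was in 12.5%, against 5.34% and 7.81%. The core of the interferon-stimulated response element (GAAA on both sides of any 2 bases) was in 5% (2 windows), against 2.91% and 3.43%, and CACGTG, an E-box, in 17.5%, against 10.4% and 7.15%. With 40 windows, each of these shares rests on 2 to 20 windows, and a match is a description and not a site of binding.

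The next 3 stretches are shown because they hold the motifs named, in capitals. Rsad2 (chr12:26456453-26456702, minus strand) has the response element core read on the other strand, TGANTCA, and TATAAA read on the other strand. Lbh (chr17:72918055-72918304, plus strand) has TATAAA and 3 matches of GGGCGG on either strand, and Rps6ka6 (chrX:111537960-111538209, minus strand) has TATAAA on its own strand.
Rsad2: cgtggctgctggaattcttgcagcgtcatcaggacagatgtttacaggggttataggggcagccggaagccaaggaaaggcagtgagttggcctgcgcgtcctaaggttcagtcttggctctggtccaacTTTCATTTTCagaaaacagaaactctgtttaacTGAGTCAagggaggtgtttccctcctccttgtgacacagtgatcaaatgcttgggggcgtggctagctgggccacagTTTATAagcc
Lbh: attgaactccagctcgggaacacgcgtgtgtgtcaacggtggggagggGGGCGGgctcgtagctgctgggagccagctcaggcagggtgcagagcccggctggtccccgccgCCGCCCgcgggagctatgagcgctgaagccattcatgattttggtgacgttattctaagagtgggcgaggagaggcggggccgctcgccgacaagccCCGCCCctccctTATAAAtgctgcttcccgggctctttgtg
Rps6ka6: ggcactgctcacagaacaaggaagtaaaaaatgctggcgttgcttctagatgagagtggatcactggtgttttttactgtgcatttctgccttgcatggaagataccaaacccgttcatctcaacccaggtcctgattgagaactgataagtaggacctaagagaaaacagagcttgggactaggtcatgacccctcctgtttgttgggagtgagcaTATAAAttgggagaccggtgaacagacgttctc
In Rsad2 the first base of the response element match lay 120 bases before the start. TATAAA began 29 bases before the start in Lbh and 33 in Rps6ka6, and 25 in Kitl. Of the 34 genes searched, Tgm1 was the other one with that core in a window. Ifi44, interferon-induced like Rsad2, had no match of these 5 motifs, which says only that the letters are not in this window.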

How the data were processed

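Polyadenylated RNA was taken from a stranded kit, and per the submitters' processing notes reads were mapped to mm10 with TopHat2 2.1.1, Bowtie2 2.2.8 and SAMtools 0.1.18, and Cuffdiff 2.2.1 is listed. The authors deposited 1 FPKM value per gene symbol and library. The gene annotation, the strand setting and the treatment of reads with several matches were not given in the sources used here. FPKM values are not counts, so limma 3.58.1 (lmFit, eBayes with a trend, R 4.3.3) was run on log2(FPKM + 1), which understates changes of low genes, for the 11018 genes that reached 1 FPKM in 2 or more libraries, with Benjamini-Hochberg adjustment, two-sided. Genes were called at an adjusted p under 0.05 and a log2 difference of at least 1. The fit was checked on simulated data. An exact permutation test of 2 against 2 libraries cannot give a p below 0.333. The value of 1 read was estimated in each library from FPKM times length in genes with a single transcript over 1 kb, and the depths are approximate. Positions and transcripts came from GENCODE M21 and RefSeq (GRCm38). The genes, relatives, partners and groups were chosen with earlier results of these data known. Of the 49 genes, 48 are named and 1 is not reported here, with relatives and neighbours where called or beside a gene they help to describe. Alternatives were a pseudocount of 0.1, no filter, TPM, median-of-ratios scaling, a replicate block and leaving out each library.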

Additional observations from a re-analysis of the deposited data

How the results depend on the processing

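The number of genes meeting the rule moved with its limits. It was 136 with 2 in place of 5 FPKM, 18 with 10, 78 with 0.2 in place of 0.1, 26 with exactly 0 at 10 passages and 35 on the TPM scale, where 32 of the 49 remained. With the limits applied without 1 library it lay between 67 and 82, being 77 without replicate 1 and 82 without replicate 2 of 48p-HFSCs.

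Over all genes tested, 1189 were called higher and 1008 lower. Rescaling to TPM gave 623 and 811, and the lower count was 637 with no filter on low values. Leaving out 1 library gave 35 to 1936 higher and 140 to 1875 lower, 4 to 49 of the 49 genes, 1 to 9 family relatives higher and 0 to 2 lower, 0 to 5 stem relatives higher and 0 to 3 lower, and 1 to 17 neighbours higher and 1 to 5 lower. The lowest counts of higher calls came without a 10p-HFSC library. Leaving out a library leaves a group with 1 sample, which limma then takes to vary like the other group. Rescaling to TPM gave 2 family relatives higher and 2 lower, 1 stem relative higher and 2 lower, and 4 neighbours higher and 1 lower. Of the 25 relatives and neighbours called, 17 lost the call on the TPM scale, 6 with no filter, 1 with a pseudocount of 0.1 and 23 with either 10p-HFSC library left out, and none with median-of-ratios scaling. No direction was reversed. Why the calls were lost was not tested beyond the shift of the median.

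Replicate numbers are only shared numbers here. With a replicate block, 1613 genes were called higher and 1497 lower, 2 family relatives and 3 stem relatives were lower, and 14 neighbours were higher and 3 lower. Libraries with the same number deviated from their group means with a correlation of 0.408 across genes, which are not independent, and 2 pairs do not show a pairing. Depth limits the lower limit of the rule, since 1 to 3 reads decide whether a gene is under 0.1 FPKM, most of all in short transcripts.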
